A study of Danio rerio with 13 samples.

Results

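The regions described here are 49 windows of the zebrafish genome. In them hnRNP A1 took a larger share of its crosslinks during zygotic genome activation (ZGA, 1000 cells) than before it (preZGA, 32 cells). The IgG control pull-down listed no unique-mapping site in them at ZGA. Each window is 10 kb long and lies on 1 strand. A window was a member if the hnRNP A1 tables of both stages together listed at least 100 cDNAs in it, if its share of all listed cDNAs was at least 2 times as large at ZGA as at preZGA, and if no unique-mapping IgG site lay in it at ZGA. The mitochondrial chromosome and chromosome 4 from 27.9 Mb on were left out. The rule found 49 members among 1822 windows of at least 100 cDNAs, and 19520 windows held a unique-mapping site in any group. The members were thus chosen by measured values, namely the cDNA counts and the stage ratio of the hnRNP A1 tables and the IgG sites at ZGA. Their stage ratios are therefore a description and were not tested.

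hnRNP A1 is an abundant RNA-binding protein that binds nascent and mature transcripts and is known for its part in the choice of splice sites, in the processing of some microRNA precursors and in the export and translation of mRNA. The early zebrafish embryo lives on RNA laid down by the mother, and its own genome is transcribed broadly only from ZGA on. In iCLIP, intact embryos are irradiated so that proteins bind covalently to the RNA they touch, an antibody pulls down the protein of interest with its RNA, and reverse transcription tends to stop at the peptide left on the RNA. The end of each cDNA therefore marks the crosslinked nucleotide, and the number of cDNAs that end there measures how often it was found.

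All embryos were of the wild-type AB strain and were irradiated at 254 nm. The 4 groups were hnRNP A1 pull-downs at ZGA (n = 4), IgG control pull-downs at ZGA (n = 3), hnRNP A1 pull-downs at preZGA (n = 3) and IgG control pull-downs at preZGA (n = 3). The libraries of each group had been summed before deposit, so each of them is represented by a single table. Replicate spread is unknown for that reason, and neither tests nor p-values could be had. Intervals in brackets are exact 95% intervals that cover counting error only. The unique-mapping hnRNP A1 tables listed 480927 cDNAs at ZGA and 583691 at preZGA, and IgG gave 20262 at ZGA and 9606 at preZGA. These tables hold only sites that passed a significance filter, so their sums do not measure sequencing depth, and a window without an entry has no significant site listed, which is not a measured 0. More RNA in the embryo and more hnRNP A1 on each RNA cannot be told apart in these data.

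The 49 windows together held 8204 cDNAs over 1526 sites at ZGA, against 3984 cDNAs over 961 sites at preZGA. That was 1.71% of the hnRNP A1 table at ZGA and 0.683% at preZGA, a share ratio of 2.50 (2.41 to 2.60). Of the 1822 windows, 112 (6.15%) reached a ratio of 2, and among the 1681 without an IgG site at ZGA the 49 members made up 2.91%. The rule used this contrast, so these percentages say how rare such windows were and nothing more about them. Over all 1822 windows the log2 ratio had a median of -0.36, so a typical window lay below the members by more than the rule's own factor. The other classes were 63 windows that were at least 2-fold higher with an IgG site at ZGA, 1423 windows within 2-fold and 287 windows that were at least 2-fold lower.

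The members were moderate in size and in ratio. Of the 48 members with a site listed at both stages, 35 had ratios below 3 and 7 had ratios of at least 4, around a median of 2.53. The interval lay above 2 in 16 of them. In 23 of the 49 members the 2 stages together held fewer than 150 cDNAs, so a single ratio there has a wide interval. The windows were spread over 23 of 25 chromosomes, 20 on the plus strand and 29 on the minus strand, and none adjoined another. Members were 5 of the 85 windows compared on chromosome 14, 4 of 52 on chromosome 9, 4 of 69 on chromosome 13 and 4 of 132 on chromosome 5, where the share was close to that of all windows. No Zv9 annotation was used here, so windows are given by position on Zv9, the zebrafish assembly of the tables, without gene names or sequences.

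The members differed in shape. In 27 windows at least 90% of the cDNAs of both stages lay within 15 nt of the strongest nucleotide, a stretch of 31 nt in a window of 10 kb, and these are called narrow. In the other 22 windows, called wide, that share was lower. Among the members the shares did not run into each other, since the lowest in a narrow member was 90.5% and the highest in a wide member was 77.3%. Over all 1822 windows this gap closed, with wide windows of up to 89.2% and narrow windows from 90%. The width that held 90% of a window's cDNAs nearly met among the members, at up to 17 nt in narrow members and from 19 nt in wide ones. Wide thus means not narrow by this rule, and some wide windows were compact. This division was made after the values had been seen, and no test was made on it.

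**Figure D1:**
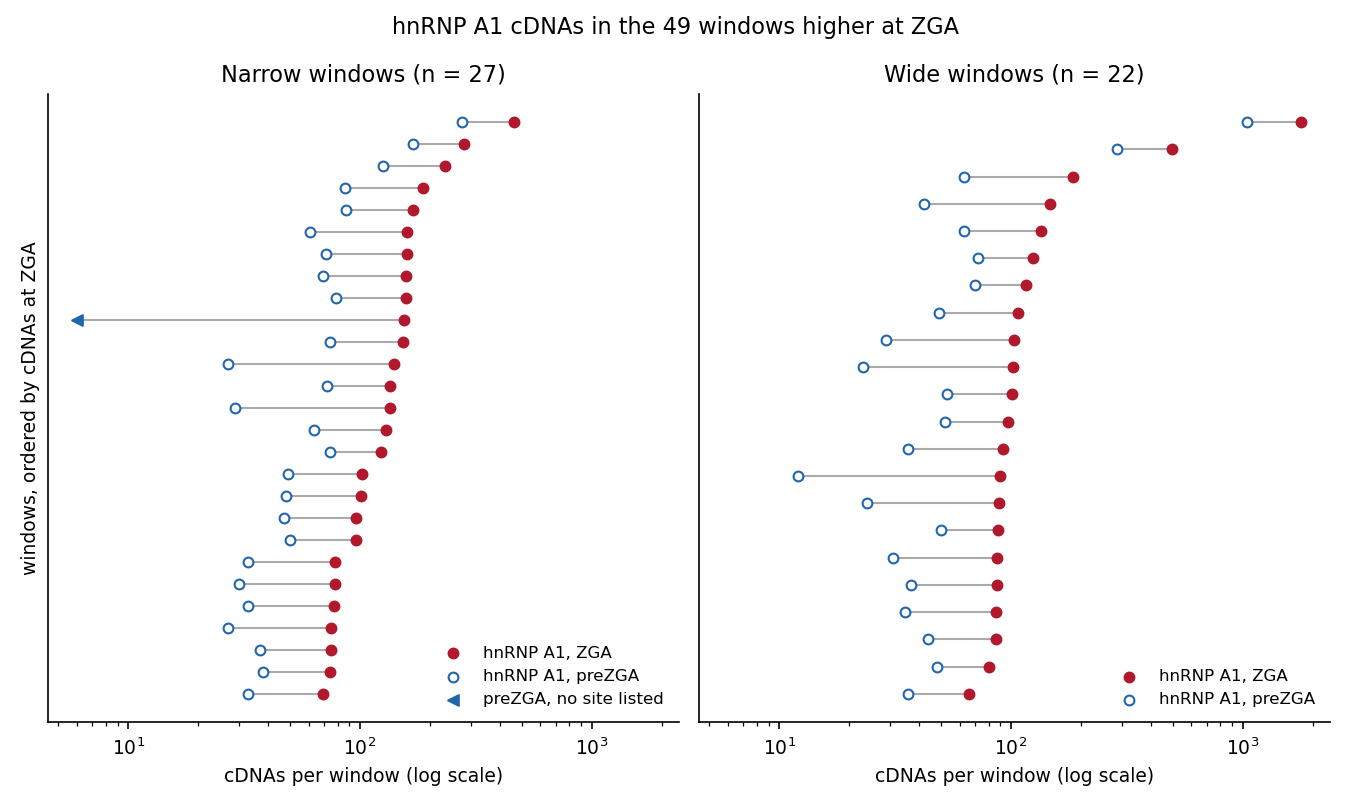
Unique-mapping hnRNP A1 cDNAs per window on a log axis, 1 row per window, for the 27 narrow members (left panel) and the 22 wide members (right panel), filled points for ZGA and open points for preZGA, each from 1 pooled table. The ZGA point lies to the right in every row, from 66 to 1783 cDNAs, and the triangle marks the 1 window with no site listed at preZGA.

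Narrow windows were common among the windows higher at ZGA, with or without IgG, and rare among the rest. They made up 55.1% of the members (40.2 to 69.3), against 52.4% of the 63 higher windows with IgG at ZGA (39.4 to 65.1), 1.34% of the 1423 windows within 2-fold (0.806 to 2.08) and none of the 287 lower windows, which allows a share of up to 1.28%. Turned round, 60 of all 79 narrow windows (75.9%) were at least 2-fold higher at ZGA, against 52 of 1743 wide windows (2.98%). Without IgG at ZGA, the count was 27 of 38 narrow windows (71.1%, 54.1 to 84.6) and 22 of 1643 wide windows (1.34%, 0.841 to 2.02). The median share ratio of these windows without IgG was 2.36 for the narrow and 0.756 for the wide. The shape was taken from the same cDNAs as the ratio, so these counts describe the tables and are not independent of the rule.

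**Figure D2:**
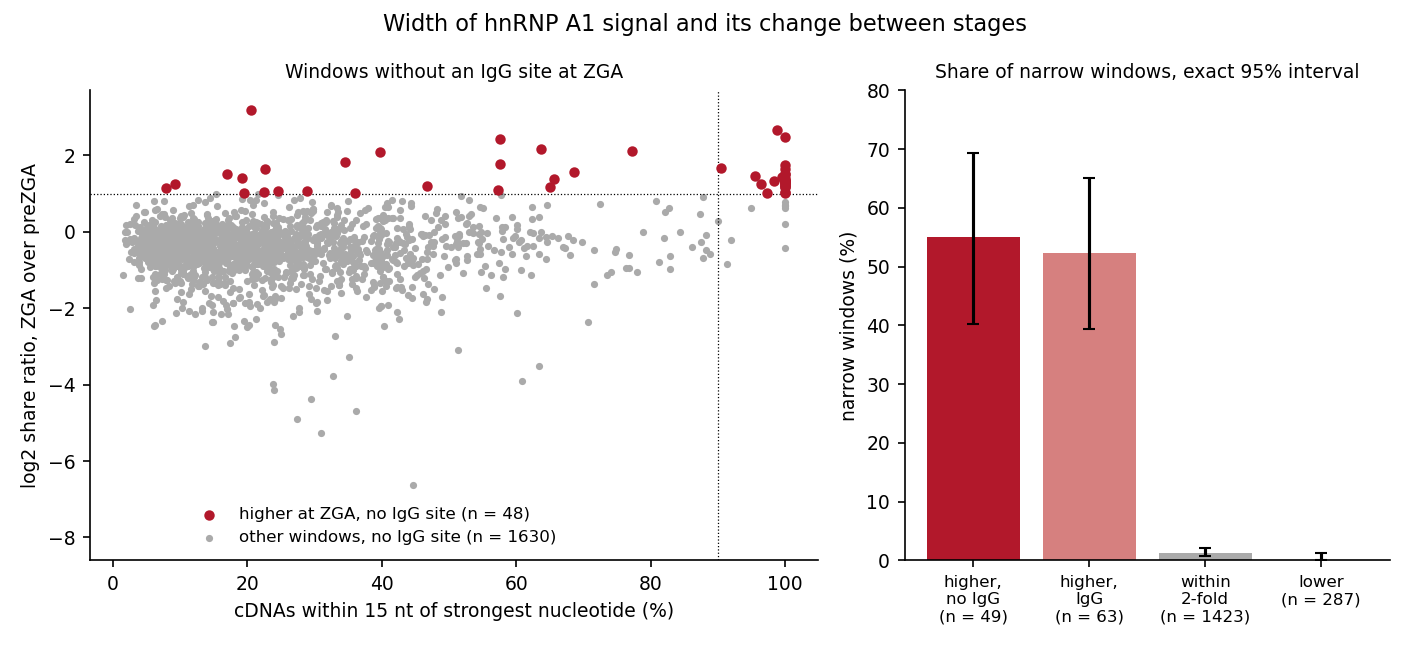
Left, share of a window's hnRNP A1 cDNAs within 15 nt of its strongest nucleotide in percent against its log2 share ratio, ZGA over preZGA, for 48 members and 1630 other windows without an IgG site at ZGA (3 windows with no site listed at 1 stage are not drawn; dotted lines mark 90% and the 2-fold ratio); right, percent of windows that are narrow in each class, with exact 95% intervals. To the right of 90% most points are members, and the bars stand at 55.1% and 52.4% for the higher classes, 1.34% within 2-fold and 0 among the lower windows.

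The 27 narrow members held 3858 cDNAs over 313 sites at ZGA, against 1786 cDNAs over 226 sites at preZGA. The share ratio was 2.62 by cDNAs (2.48 to 2.77) and 1.99 by sites, since each site carried 12.3 cDNAs on average at ZGA and 7.90 at preZGA. The stretch that held 90% of a window's cDNAs had a median width of 6 nt and ranged from 4 to 17 nt. In 20 of the 27 windows no site of either stage was farther than 15 nt from the strongest nucleotide, so unique mapping listed nothing else on that strand in the whole 10 kb. Multi-mapping sites were not counted here, and some of these windows hold such sites farther away. On the same strand, 23 of 27 had no hnRNP A1 cDNA in either neighbouring window, a share near that of all narrow windows, 69 of 79.

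The largest narrow member lay on chromosome 9 minus at 53710001 to 53720000. It held 462 cDNAs over 15 sites at ZGA, against 274 over 13 sites at preZGA, a ratio of 2.05 (1.76 to 2.39). All of its sites lay on consecutive nucleotides within 16 nt. The strongest, 53718648, was also the last one in the direction of the transcript, with 106 cDNAs at ZGA and 91 at preZGA. At the nucleotide just 5′ of it, 53718649, there were 50 cDNAs at ZGA and 28 at preZGA, and a second peak stood at 53718651, with 81 at ZGA and 40 at preZGA.

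Next, at 44800001 to 44810000 on chromosome 14 plus, there were 281 cDNAs over 27 sites at ZGA, against 169 over 9 sites at preZGA, with a ratio of 2.02 (1.66 to 2.46). Its strongest nucleotide, 44809148, had 61 cDNAs at ZGA and 61 at preZGA, or 21.7% and 36.1% of the window's cDNAs. The hnRNP A1 total over the genome was smaller at ZGA, so the same number was a larger share of that total. The other sites together held 220 cDNAs at ZGA and 108 at preZGA, so the number of cDNAs rose only in the sites around it. A second window of chromosome 14 plus, at 30200001 to 30210000, had 233 cDNAs over 9 sites at ZGA and 126 over 6 sites at preZGA, a ratio of 2.24 (1.80 to 2.81). In it a single nucleotide, 30202501, took 127 cDNAs at ZGA and 70 at preZGA. Next in size was chromosome 13 minus at 7610001 to 7620000, with 187 cDNAs at ZGA, 86 at preZGA and a ratio of 2.64 (2.03 to 3.45).

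Other narrow members were smaller. On chromosome 1 plus, 33540001 to 33550000 had 169 cDNAs at ZGA and 87 at preZGA, with a ratio of 2.36 (1.81 to 3.09). Chromosome 19 minus at 32830001 to 32840000 held 160 cDNAs at ZGA and 61 at preZGA, with a ratio of 3.18 (2.36 to 4.35). This was the broadest of the narrow windows, with 90% of its cDNAs over 17 nt. Beside the main stretch it had 3 small ones, and 8 of its 21 preZGA sites were also sites at ZGA. Of the ZGA cDNAs within 15 nt of its strongest nucleotide, those on it left out, 35.4% lay 5′ of it. Chromosome 9 minus at 8410001 to 8420000 held 159 cDNAs at ZGA and 71 at preZGA, with a ratio of 2.72 (2.04 to 3.65).

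The highest ratio of a narrow member with sites at both stages, 6.29 (4.15 to 9.89), was on chromosome 13 minus at 49820001 to 49830000, with 140 cDNAs over 15 sites at ZGA and 27 over 9 sites at preZGA. One nucleotide, 49827406, held 58.6% of this window's ZGA cDNAs. It carried 82 cDNAs at ZGA and had no significant site listed at preZGA. The strongest nucleotide at preZGA was 49827412, with 6 cDNAs. With the strongest nucleotide of each stage left out, the log2 ratio of this window was 1.75, against 2.65 with both. Chromosome 23 plus at 39000001 to 39010000 had the next highest, 5.61 (3.73 to 8.69), with 134 cDNAs over 9 sites at ZGA and 29 over 5 sites at preZGA.

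One narrow member had no significant site listed at preZGA by unique mapping. It lay on chromosome 11 minus at 840001 to 850000 and held 155 cDNAs over 8 sites at ZGA, of which 127, or 81.9%, lay on the nucleotide 848526. No fold is given for it. Its multi-mapping cDNAs, which the rule did not use, were listed at both stages and are given further on.

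In 5 members a single nucleotide held at least 50% of the ZGA cDNAs. These were the chromosome 11 window, chromosome 13 minus at 49820001 with 58.6%, chromosome 9 minus at 46550001 with 54.7% and chromosome 14 plus at 30200001 with 54.5%, all narrow, and 1 wide window on chromosome 21 minus described further on.

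Where the strongest nucleotide could be compared, it was the same at both stages in 19 of 26 narrow members, and within 1 nt in 23. Among all narrow windows it was the same in 49 of 77 and within 1 nt in 62, so this was not particular to the members. Of the 226 preZGA sites of the narrow members, 200 (88.5%, 83.6 to 92.3) were also sites at ZGA on the same nucleotide and strand. Over single windows this share ran from 38.1% to 100%, a spread between windows that the intervals in this paragraph leave out. In the 11 narrow windows without IgG at ZGA that stayed within 2-fold, this share was 66.2% (58.0 to 73.8), and in the 33 narrow higher windows with IgG it was 94.3% (90.9 to 96.7). Counted from the 313 ZGA sites of the narrow members, the same 200 made up 63.9% (58.3 to 69.2). By that count the 11 windows within 2-fold stood at 76.6% (68.3 to 83.6) and the 33 with IgG at 67.0% (62.1 to 71.6). Most positions listed at preZGA in the narrow members were thus listed at ZGA too, while many ZGA sites were not listed at preZGA.

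Within the narrow members the cDNAs piled up on 1 side. The strongest nucleotide was taken over both stages together. The cDNAs on that nucleotide itself are left out of all shares on the 5′ side given here. Of the other cDNAs within 15 nt of it, 80.2% (78.6 to 81.7) lay 5′ of it at ZGA and 84.0% (81.8 to 86.1) at preZGA. The share was above 50% at ZGA in 23 of the 27 windows, at least 90% in 15 and exactly 100% in 10, with a median of 96.4%. It ran from 25% to 100% over the windows, a spread that the intervals of the pooled shares in this paragraph leave out. In the wide members it was 50.2% (47.1 to 53.3) at ZGA and 44.7% (40.4 to 48.99) at preZGA. In the 11 narrow windows without IgG that stayed within 2-fold it was 47.4% (44.0 to 50.8) at ZGA and 55.2% (51.5 to 58.8) at preZGA. Their median at ZGA was 61.3%, 2 of them reached 90%, and 1 window, chromosome 6 minus at 55290001 with 455 cDNAs at ZGA, weighs heavily in their pooled share. In the 33 narrow higher windows with IgG the pooled share was 62.2% at ZGA and 71.6% at preZGA, with a median of 69.1% at ZGA. The mean profile was alike at both stages: the strongest nucleotide held 33.4% of the cDNAs at ZGA and 33.0% at preZGA, the nucleotide just 5′ of it 13.3% and 12.4%, and the nucleotide just 3′ of it 6.59% and 6.62%, each with ZGA first.

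**Figure D3:**
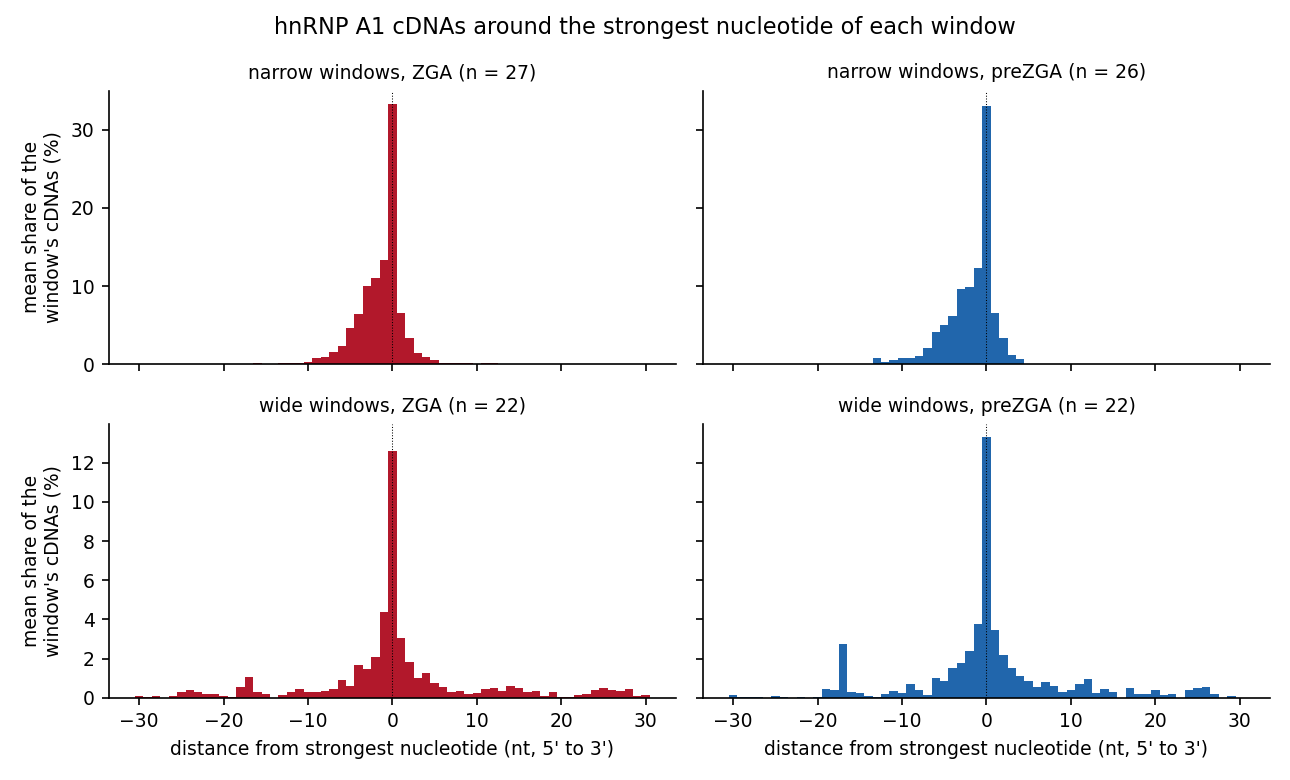
Mean share of a window's cDNAs in percent by distance in nt from its strongest nucleotide, negative values 5′, for narrow members (top; 27 at ZGA, 26 with a site at preZGA) and wide members (bottom, 22 at each stage), ZGA on the left and preZGA on the right. The narrow profiles peak at 33.4% at ZGA and 33.0% at preZGA and carry more cDNAs on the 5′ side than on the 3′ side, and the vertical scales of the rows differ.

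The 22 wide members held 4346 cDNAs over 1213 sites at ZGA, against 2198 cDNAs over 735 sites at preZGA, a share ratio of 2.40 by cDNAs (2.28 to 2.53) and 2.37 by sites. One window on chromosome 15 held much of this. Without it the wide members had 2563 cDNAs at ZGA and 1156 at preZGA, with ratios of 2.69 by cDNAs and 2.61 by sites. The width that held 90% of the cDNAs had a median of 548 nt and ranged from 19 to 7208 nt. It was more than 1000 nt in 8 windows and at most 100 nt in 4. Each site carried fewer cDNAs than in the narrow members, 2.54 on average at ZGA and 2.08 at preZGA without the chromosome 15 window. All wide windows without IgG at ZGA averaged less, 1.75 at ZGA and 1.83 at preZGA. The whole tables, which include narrow windows and the chromosome parts left out here, averaged 2.40 cDNAs per site at ZGA and 2.03 at preZGA.

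The number of sites was not part of the rule, although it comes from the same libraries. All 49 members had a larger share of the listed sites at ZGA than at preZGA, against 47.4% of the 1822 windows. The site ratio reached 2 in 18 of 22 wide members and 11 of 27 narrow members, against 5.38% of the 1822 windows. The 63 higher windows with IgG at ZGA were alike in this: the site ratio was above 1 in 62 and reached 2 in 40. Both ratios, by cDNAs and by sites, count the same cDNAs, so the agreement in direction is not a separate observation.

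The largest member of all was the chromosome 15 plus window at 3510001 to 3520000, the fourth largest hnRNP A1 window at ZGA among those compared. It held 1783 cDNAs over 205 sites at ZGA, against 1042 over 180 sites at preZGA, a ratio of 2.08 (1.92 to 2.24). It gave 21.7% of all member cDNAs at ZGA and 26.2% at preZGA. All of its sites lay within 465 nt, in 3 stretches when sites at most 50 nt apart are joined. The stretch at 3515353 to 3515568 held 1373 cDNAs at ZGA and 849 at preZGA, and the stretch at 3515670 to 3515705 held 405 at ZGA and 193 at preZGA. A short one at 3515241 to 3515249 held 5 cDNAs at ZGA and had no site listed at preZGA. Of its 180 preZGA sites, 166 were also sites at ZGA, but no nucleotide stood out: the strongest at ZGA, 3515517, had 65 cDNAs at ZGA and 37 at preZGA, and 3515568 had 62 at ZGA and 36 at preZGA.

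The second largest, chromosome 21 minus at 18740001 to 18750000, held 494 cDNAs over 151 sites at ZGA and 287 over 114 sites at preZGA, with a ratio of 2.09 (1.80 to 2.42). Most of it lay in 1 stretch at 18744727 to 18744986, with 434 cDNAs at ZGA and 196 at preZGA. Here the cDNAs were spread most evenly of all members, with 2.43% of them on the strongest nucleotide at ZGA. Chromosome 15 plus at 38820001 to 38830000 was more compact. Its 186 cDNAs at ZGA and 63 at preZGA, a ratio of 3.58 (2.68 to 4.85), all lay between 38824977 and 38825029, and its strongest nucleotide, 38825028, had 40 cDNAs at ZGA and none listed at preZGA.

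The highest ratio of all members with sites at both stages was in a wide window, chromosome 10 plus at 17460001 to 17470000, at 9.10 (4.96 to 18.3). It held 90 cDNAs over 58 sites at ZGA and 12 over 8 sites at preZGA, in 7 short stretches. Of these, 4 had sites at ZGA only, with 14, 18, 15 and 16 cDNAs, and 1 had sites at preZGA only, with 4 cDNAs. Among the wide members, chromosome 21 minus at 36760001 to 36770000 was second with 5.38 (3.40 to 8.87), from 102 cDNAs at ZGA and 23 at preZGA. Its strongest nucleotide alone held 62.7% of the cDNAs at ZGA, and without the strongest nucleotide of each stage its log2 ratio was 2.21. Chromosome 5 plus at 44740001 to 44750000 had 89 cDNAs at ZGA, 24 at preZGA and a ratio of 4.50 (2.84 to 7.39).

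**Figure D4:**
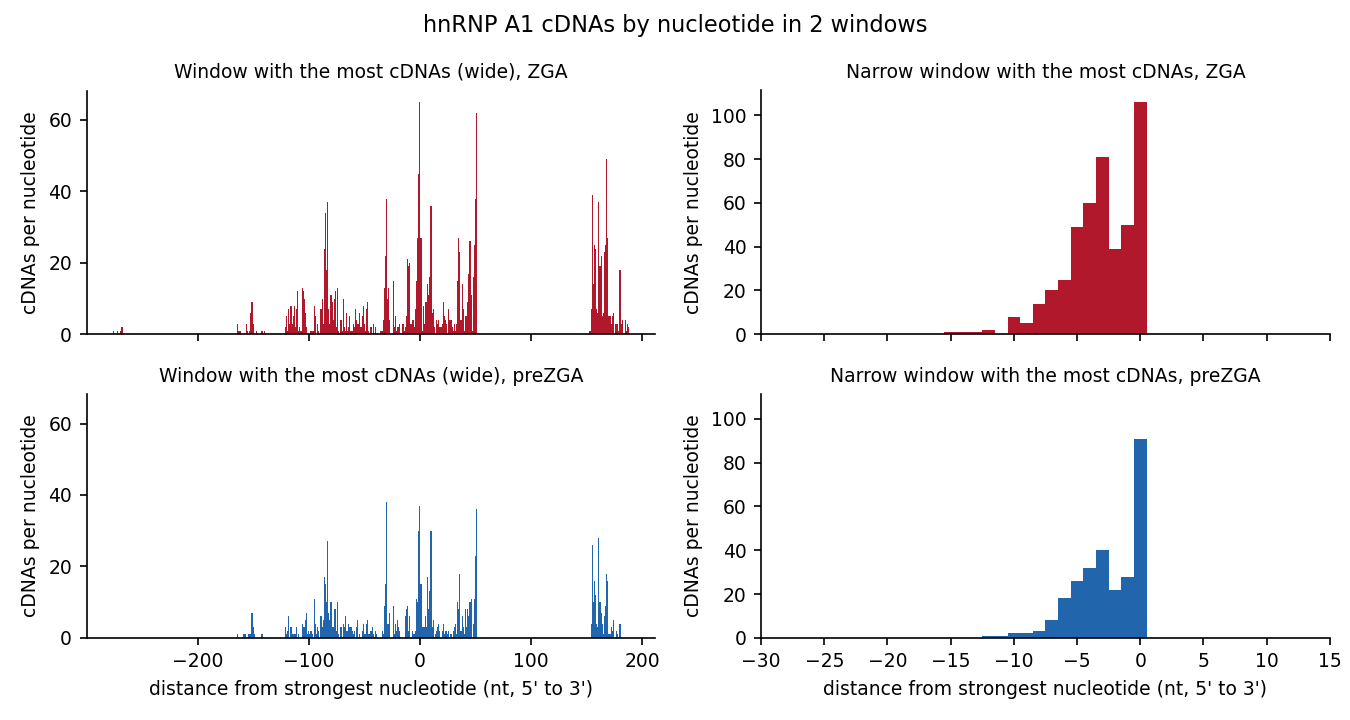
Unique-mapping hnRNP A1 cDNAs on each crosslinked nucleotide of the chromosome 15 plus window (wide) and the chromosome 9 minus window (narrow), by distance in nt from the strongest nucleotide (negative is 5′), at ZGA above and at preZGA below. The wide window has many sites of at most 65 cDNAs over 465 nt, and the narrow one has sites of up to 106 cDNAs within 16 nt.

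In all, the wide members consisted of 80 such stretches, with a median of 3 and at most 8 in a window. Of these, 47 had sites at both stages, 21 had sites at ZGA only, with 323 cDNAs, and 12 had sites at preZGA only, with 87 cDNAs. The rule asked for a larger share at ZGA, so it favours stretches with sites at ZGA only. Stretches are given for the members alone, so no share over other windows stands beside these counts. In the window on chromosome 17 minus at 43650001 to 43660000, for example, the stretch at 43655917 to 43656068 held 108 cDNAs at ZGA and 42 at preZGA, while the one at 43656196 to 43656220 held 39 at ZGA and had no site listed at preZGA. The windows with the most even spread, after the one on chromosome 21, were the chromosome 15 plus window at 3510001 with 3.65% of its ZGA cDNAs on 1 nucleotide, chromosome 10 plus at 17460001 with 4.44%, this one with 4.76% and chromosome 19 minus at 16640001 with 5.17%. The same nucleotide was strongest at both stages in 5 of 22 wide members, against 209 of 1738 among all wide windows. Of the preZGA sites of the wide members, 61.2% (57.6 to 64.8) were also sites at ZGA, or 51.2% without the chromosome 15 window.

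Over all members, 650 of 961 preZGA sites (67.6%, 64.6 to 70.6) were sites at ZGA, and 62.0% without the chromosome 15 window. The share was 86.1% in the 63 higher windows with IgG, 31.9% in the windows within 2-fold (31.6 to 32.1) and 17.2% in the lower windows. Counted from the ZGA sites, shared sites made up 42.6% in the members and 34.2% in the higher windows with IgG. They made up 44.8% in the windows within 2-fold and 51.3% in the lower windows, so that order ran the other way. The share of preZGA sites depends on how many sites are listed at ZGA. It also depends on the cDNAs per preZGA site, which averaged 4.15 in the members and 1.86 in the windows within 2-fold. How far that accounts for the order by preZGA sites was not tested.

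The IgG control was empty at ZGA by the rule, but IgG at preZGA and IgG by multi mapping were not used in it. At preZGA, 1 of 49 members (2.04%, 0.0517 to 10.9) held unique-mapping IgG, namely 4 cDNAs in the chromosome 15 plus window at 3510001 to 3520000. That compared with 7.20% of the 1681 windows without IgG at ZGA (6.01 to 8.54) and 50.8% of the 63 higher windows with IgG at ZGA (37.9 to 63.6). The members also held fewer hnRNP A1 cDNAs at preZGA, with a median of 49 against 129 in those 1681 windows. Relative to the hnRNP A1 cDNAs at preZGA, IgG was alike, at 0.100% in the members and 0.108% in the 1681 windows. IgG by multi mapping summed to 5.57 cDNAs in 7 of the 49 members at ZGA and 1.5 cDNAs in 4 members at preZGA. Of the 1681 windows without unique-mapping IgG at ZGA, 114 held multi-mapping IgG at ZGA and 98 at preZGA. By this measure the members held IgG more often than those windows, above all at ZGA. The highest value in a window at ZGA was 1.62 cDNAs, on chromosome 20 plus at 54490001 to 54500000. Next came 1.33 on chromosome 11 minus at 840001 to 850000 and 1.19 on chromosome 1 minus at 10970001 to 10980000. The remaining 4 were below 1 cDNA: 0.537 on chromosome 19 minus at 32830001, 0.5 on chromosome 21 minus at 18740001, 0.333 on chromosome 14 minus at 32480001 and 0.0667 on chromosome 1 minus at 7720001.

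The absence of a listed IgG site rests on small numbers. In the narrow windows with IgG at ZGA, IgG cDNAs amounted to a median of 1.46% of the hnRNP A1 cDNAs at ZGA. In a member with the median number of 103 cDNAs that would be 1.5 cDNAs, and a site had to pass a significance filter to be listed. The 103 is the median of all members, and that of the narrow members was higher, at 134. In the wide windows with IgG the median was 2.90%, so the number would be higher there too. The windows with IgG were chosen for having it listed, and IgG below the 1.46% median was listed in some narrow ones.

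Multi-mapping cDNAs are those whose sequence occurs at several places, each cDNA shared over its hits. They are other cDNAs of the same libraries and were not used to choose the members. Most members had hardly any: 30 of 49 had none and 41 had less than 1 cDNA over both stages. Any such cDNA was listed in 19 of the 49 members, against 1163 of all 1822 windows. At least 10 were held by 5 of the 49 members and by 98 of the 1822 windows. In total the members held 660 at ZGA and 210 at preZGA, a share ratio of 1.84, and 5 windows with at least 10 such cDNAs gave nearly all of them, with 651 at ZGA and 205 at preZGA. In all 5 the share was larger at ZGA, against 31.6% of the 98 windows with at least 10, and in 2 of 5 it was at least 2-fold larger, against 9.18%. Among the higher windows with IgG at ZGA, 9 held at least 10 such cDNAs, and in 4 of these the share was at least 2-fold larger.

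The window on chromosome 11 minus at 840001 to 850000 had 140 multi-mapping cDNAs at ZGA and 21.2 at preZGA, a ratio of 3.88, so sequence that also occurs elsewhere was listed there at preZGA although no unique-mapping site was. Chromosome 20 plus at 54490001 to 54500000 had 147 at ZGA and 31.4 at preZGA, a ratio of 2.73. By unique mapping this window held 103 cDNAs at ZGA and 29 at preZGA, with a ratio of 4.31 (2.83 to 6.75). In the other 3 windows the multi-mapping ratio was below 2, but this depends on the totals used. With the totals of unique and multi mapping together, all 5 windows were above 2, against 29 of the 98 windows (29.6%), and these 3 had ratios of 3.23, 2.78 and 2.46 in the order given next. With the multi-mapping totals it was 1.66 on chromosome 19 minus at 32830001 (65.2 cDNAs at ZGA and 22.9 at preZGA), 1.43 on chromosome 9 minus at 53710001 (160 at ZGA and 65.5 at preZGA) and 1.27 on chromosome 1 minus at 10970001 (139 at ZGA and 64.2 at preZGA). Of these 5 windows 4 were narrow, and most of their multi-mapping cDNAs lay within 15 nt of the strongest unique nucleotide, 558 at ZGA and 179 at preZGA.

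In 41 of 49 members no cDNA was listed in either neighbouring window on the same strand, which was so for 856 of all 1822 windows, or 47.0%. On the opposite strand none was listed for 35 of 49 members (71.4%), against 1613 of 1822 windows (88.5%). The 63 higher windows with IgG at ZGA were like the members in both respects. Of them, 52 had no cDNA in either neighbouring window and 47 had none on the opposite strand. Both neighbouring windows were strongly listed for the wide member on chromosome 22 plus at 28870001 to 28880000, with 87 cDNAs at ZGA and 31 at preZGA and a ratio of 3.41 (2.24 to 5.31). The window before it, from 28860001, held 836 cDNAs at ZGA and 84 at preZGA, a ratio of 12.1, with 189 IgG cDNAs at ZGA. The window after it, from 28880001, held 365 cDNAs at ZGA and 12 at preZGA, a ratio of 36.9, with 57 IgG cDNAs at ZGA. This member thus lay between a pair of windows that the rule left out for their IgG.

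Other neighbours went both ways. The opposite strand of the member on chromosome 9 minus at 8410001 held 23 cDNAs at ZGA and 3 at preZGA, and the window after the member on chromosome 23 plus, from 39010001, held 12 at ZGA and 3 at preZGA. The windows before the members on chromosome 5 plus at 44740001 and chromosome 21 minus at 36760001 held 21 and 12 cDNAs at ZGA, with no site listed at preZGA. In some other cases the ratio was below 1. On chromosome 13 minus at 50760001 to 50770000 the member held 74 cDNAs at ZGA and 38 at preZGA, a ratio of 2.36 (1.58 to 3.59), while the opposite strand held 422 at ZGA and 1000 at preZGA, a ratio of 0.512. Next to the narrow member on chromosome 19 minus at 32830001, the window from 32820001 on the same strand held 106 cDNAs at ZGA and 195 at preZGA, a ratio of 0.660. The opposite strand of that member held 248 at ZGA and 381 at preZGA, a ratio of 0.790.

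The thresholds cut through a continuous range. Just above the ratio of 2 lay chromosome 19 minus at 16640001 (2.01, from 116 cDNAs at ZGA and 70 at preZGA), chromosome 1 minus at 10970001 (2.02, from 123 at ZGA and 74 at preZGA) and the chromosome 14 plus window at 44800001. Just below it lay chromosome 15 minus at 42360001 (1.99, from 115 at ZGA and 70 at preZGA), chromosome 6 minus at 55290001 (1.99, from 455 at ZGA and 278 at preZGA) and chromosome 9 plus at 39610001 (1.98, from 85 at ZGA and 52 at preZGA). By cDNAs, the members just inside had 102 over both stages, on chromosome 10 plus at 17460001, chromosome 17 minus at 10450001 and chromosome 5 minus at 49430001. Just outside were windows of 98 on chromosome 14 plus at 24630001, 96 on chromosome 25 minus at 26030001 and 94 on chromosome 5 minus at 25430001, with ratios of 2.09, 3.45 and 2.35 in that order.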

How the data were processed

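Crosslink sites of hnRNP A1 and IgG iCLIP were used as deposited. Per the file headers and labels, the authors summed the libraries of a group and kept sites at a false discovery rate of 0.01, from 100 permutations and a neighbourhood of 15 nt, on danRer7 (Zv9) with Ensembl release 72. The submitters' processing notes name CASAVA version 1.4. For the aligner, no source used here gives a name. The values the authors deposited are signed cDNA counts, an unlisted kind of unit ("other"): the sign gives the strand and the size is the number of cDNAs, whole for unique mapping and fractional for multi mapping. Among 26 files there were 8 different tables (4 groups, unique or multi mapping), each used once. The labels speak of 3 summed replicates, while the header at ZGA names 4 libraries, and which is right was not settled.

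Sites were summed in 10 kb windows per strand. The share ratio divided a window's part of the ZGA table by its part of the preZGA table, with an exact conditional binomial interval; shares have Clopper-Pearson intervals at 95%. The handling of PCR duplicates is not given in these sources, and intervals cover counting error only. The window code was tested on simulated data. No test across replicates was possible.

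The members and lists were chosen with earlier results of these data known. Windows are named by rule: the 10 members with the most cDNAs at ZGA and the 5 at preZGA, those without a preZGA site, the 5 highest ratios, those next to a threshold, those with IgG the rule did not use, the 5 with the most multi-mapping cDNAs, and those with the largest and smallest share on 1 nucleotide. The 2 windows named for their neighbours (chromosomes 22 plus and 13 minus at 50760001) were chosen after their values were seen, as were the definition of narrow and its alternatives. A Zv9 genome was not used here. Computations ran in Python 3.11.15 with scipy 1.17.1, pandas 2.3.3 and numpy 2.4.6, and plots were drawn with matplotlib 3.10.9.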

Additional observations from a re-analysis of the deposited data

How the results depend on the processing

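The number of windows that met the rule, 49, depended on its thresholds and on the scaling. It was 12 with sites of at least 5 cDNAs, 91 with the median log2 ratio of all windows set to 0, 78 without hnRNP A1 sites within 15 nt of an IgG site, 76 with multi-mapping cDNAs added, 155 in windows of 5 kb with at least 50 cDNAs, 13 in windows of 20 kb with at least 200 cDNAs, 156 with a minimum of 50 cDNAs and 14 with a minimum of 200. Of the 49 members, 42 still met it with multi mapping added, 35 with sites of at least 2 cDNAs (39 windows in all) and 29 when sites replaced cDNAs (55 in all). The log2 share ratio over the members, 1.32, was 1.26 with sites of at least 2 cDNAs, 1.04 with at least 5, 1.41 without the 10 strongest windows in the totals, 1.68 with the median set to 0, 1.62 without sites near IgG, 1.26 with multi mapping added, 1.19 by sites and 1.41 without the chromosome 15 window. The log2 multi-mapping ratio, 0.88, was 1.83 with the totals of both mapping types. Shared preZGA sites, 67.6%, were 79.8% within 1 nt, 88.2% within 15 nt, 86.4% for preZGA sites of at least 2 cDNAs, 99.1% for at least 5, and 62.0% without the chromosome 15 window. The causes of these shifts were not tested. The number of narrow members was 25 to 28 under 5 other definitions, against 27. Among single windows, chromosome 2 minus at 55470001 turned direction with sites of at least 5 cDNAs, at a log2 ratio of -0.16, and 20 of 48 fell below a log2 ratio of 1 by sites. No paired analysis was possible because the pooled tables carry no replicate numbers, and for the same reason no library could be left out.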

Other observations

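The window with the most IgG cDNAs at ZGA among those compared, chromosome 1 plus at 2600001 to 2610000, was broader than the narrow members and was left out by the rule. The hnRNP A1 pull-down gave 10381 cDNAs there at ZGA and 6117 at preZGA, a share ratio of 2.06 (1.995 to 2.13), and 7465 IgG cDNAs at ZGA and 5785 at preZGA. Of its hnRNP A1 cDNAs, 89.2% lay within 15 nt of the strongest nucleotide, just short of the 90% that defines a narrow window, and 90% of them lay over 39 nt, against 4 to 17 nt in the narrow members. Among the windows with IgG at ZGA, 33 of 41 narrow ones were at least 2-fold higher at ZGA, against 27 of 38 narrow windows without IgG.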
